A study of Homo sapiens with 5 samples.

Results

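The long noncoding RNAs of this report are the transcripts of the deposited table whose symbols begin with LINC or SNHG, end in -AS, -DT or -IT with their number, follow the pattern of a microRNA host gene (MIR to HG), or read GAS5. MALAT1 and NEAT1 were left out. This gave 63 of the 4202 listed genes. Of them 13 are hosts of small nucleolar RNAs (12 SNHG genes and GAS5). By symbol, the other 50 are 18 LINC genes, 2 microRNA hosts, 22 antisense transcripts, 4 divergent transcripts and 4 transcripts from introns. Their levels come from total RNA sequencing of the MDA-MB-231 line, a breast cancer line of the triple-negative, mesenchymal-like kind, after 4 h of treatment. There was 1 library each for CGI-1746 (a BTK inhibitor, per the labels), LU-102, CGI-1746 plus LU-102, bortezomib (a proteasome inhibitor used as the control for proteasome inhibition) and mock. The labels state no doses. With 1 library per condition no difference below has a replicate error, and none was tested.

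Most small nucleolar RNAs (snoRNAs), which guide the modification of ribosomal RNA, are cut out of the introns of a host gene. The exons of a noncoding host are spliced together into an RNA that in many cases reaches ribosomes and is then degraded by nonsense-mediated decay, so the snoRNA and its host RNA have separate fates. Several host genes begin transcription in a run of pyrimidines, the start shared by ribosomal protein genes and known as a 5′ terminal oligopyrimidine tract. Antisense and divergent transcripts start on the opposite strand of a coding gene or of its promoter, and intronic transcripts lie within a coding gene.

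The starts of host genes are shown because they set apart the hosts that begin like ribosomal protein genes. Each line gives 15 bases before and 25 bases after the annotated start, 5′ to 3′ on the gene's strand, from RefSeq on GRCh38.p14. Capitals mark the unbroken run of C and T that begins at the first transcribed base.
SNHG12 (chr1:28581849-28581888, minus strand): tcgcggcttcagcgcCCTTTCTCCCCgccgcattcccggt
SNHG32 (chr6:31834901-31834940, plus strand): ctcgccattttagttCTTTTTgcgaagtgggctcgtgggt
SNHG5 (chr6:85678709-85678748, minus strand): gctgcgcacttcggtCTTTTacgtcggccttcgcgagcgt
SNHG1 (chr11:62855861-62855900, minus strand): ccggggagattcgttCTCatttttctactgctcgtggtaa
SNHG16 (chr17:76557749-76557788, plus strand): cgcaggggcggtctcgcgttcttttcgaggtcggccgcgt
SNHG29 (chr17:16438972-16439011, plus strand): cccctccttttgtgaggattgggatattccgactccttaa
SNHG12, SNHG32 and SNHG5 hold a C at the start followed by further C or T, at least 5 bases in all, on the gene's strand. No such run begins at the annotated start of SNHG16 or SNHG29, although both windows hold C and T runs elsewhere, and the run at the start of SNHG1 is 3 bases long. The start shown for SNHG12 is that of the RefSeq promoter table and lies inside the gene span used for its reads, whose upstream end is at 28582983. Of the 11 host promoters at hand 3 had such a run (27.3%), against 1 of 38 promoters of other members, 45 of 76 promoters of listed ribosomal protein genes and 4.07% of all 35116 promoters. A match describes letters only and is not evidence of a working site.

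The microRNAs inside MIR17HG and MIR22HG are shown because they are what these hosts are known for; none of their mature forms was analysed here. Capitals mark the seed, bases 2 to 8, which pairs with target RNAs, and the sequences are from RefSeq on GRCh38.p14.
hsa-miR-17-5p: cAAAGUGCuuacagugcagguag
hsa-miR-20a-5p: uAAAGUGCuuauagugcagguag
hsa-miR-18a-5p: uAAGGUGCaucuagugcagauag
hsa-miR-19a-3p: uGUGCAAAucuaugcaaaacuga
hsa-miR-19b-3p: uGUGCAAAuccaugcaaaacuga
hsa-miR-92a-3p: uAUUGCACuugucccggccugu
hsa-miR-22-3p: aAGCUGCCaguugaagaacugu
MIR17HG, on chromosome 13 (91347687 to 91354577), carries the first 6, and MIR22HG carries miR-22. Within MIR17HG, miR-17-5p and miR-20a-5p share one seed, and miR-19a-3p and miR-19b-3p share another.

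Levels are normalized read signals as deposited. Level times the gene's full annotated length, introns included, came to whole numbers of reads within 0.1 read in all 5 libraries for 2305 of the 4124 genes with a RefSeq length (55.9%) and for 45 of 60 such members. Reads and exact Clopper-Pearson 95% intervals of ratios are given for those members, and the intervals cover counting error only. Taken as RPKM, a scale the sources do not state, they correspond to libraries of between 16800000 and 18600000 reads. The bortezomib library stood apart: 2231 genes had a level of at least 1, where the other treated libraries had 4170 to 4177 and mock 4161, and its median log2 ratio to mock over all genes compared was -0.98 (-0.44 after median-of-ratios scaling). Bortezomib ratios of hosts, and counts over the other RNAs, are therefore also set against that median. The line's mesenchymal markers were present in mock, with levels of 92.1 for VIM, 48.4 for LGALS1 and 17.7 for AXL. The luminal keratin KRT18 was present too, at 35.5; ESR1, EPCAM, CDH1 and GATA3 were not analysed here.

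Host RNAs were the better expressed members, with a median level of 5.50 in mock against 1.71 for the other long noncoding RNAs. Levels ran between 1.19 (SNHG12) and 23.0 (SNHG16) among hosts in mock. Because a level is spread over the whole gene, a host with long introns has a low level for its reads. SNHG29, which spans 31662 bases, had 2930 reads in mock and SNHG16, which spans 7585 bases, had 2938 reads, although their levels were 5.50 and 23.0. Reads per kilobase of the median annotated transcript were worked out for the 8 hosts with recovered reads. In mock SNHG29 had 3740, SNHG16 2076, SNHG1 818, SNHG8 540, SNHG5 530, SNHG15 255, SNHG6 214 and SNHG12 81.7. SNHG8 (254 reads) and SNHG5 (356 reads) lay close together in that order. SNHG32, SNHG3, SNHG7, SNHG10 and GAS5 have no place in it. Whether reads in introns were counted is not stated, and such reads could change the order. Nor is it stated whether reads were counted by strand. Exons of the opposite strand overlap 30.6% of the exon length of SNHG16, 29.3% of SNHG6, 25.2% of SNHG7 and 20.1% of SNHG10. Reads of another gene may thus be part of the levels of these hosts.

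Bortezomib was compared with mock in 1 library each, and the library-wide shift given above is part of each ratio. SNHG1, which carries several C/D box snoRNAs of chromosome 11, had levels of 9.74 under CGI-1746, 8.91 under LU-102, 9.62 under both and 1.5 under bortezomib, against 9.30 in mock. The bortezomib library stood alone at the low end, with 109 reads against 612 in mock, and the other 4 libraries lay close together. This is 6.20-fold lower (ratio 0.161, interval 0.130 to 0.198), a log2 ratio of -2.04 with the pseudocount of 1. In bulk RNA of a culture, fewer cells with the RNA and less of it in each cell cannot be told apart. As levels are normalized, a changed make-up of the rest of the library cannot be told apart from either.

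SNHG29, the host of snoRNAs SNORD49A, SNORD49B and SNORD65, had levels of 5.04 under CGI-1746, 5.08 under LU-102, 5.14 under both and 1.12 under bortezomib, against 5.50 in mock. It was 4.91-fold lower with bortezomib (659 reads against 2930, ratio 0.204, interval 0.187 to 0.222). SNHG32, which holds SNORD48 and SNORD52, had levels of 10.9 under CGI-1746, 10.1 under LU-102, 12.2 under both and 2.84 under bortezomib, against 9.74 in mock. It was 3.43-fold lower with bortezomib. GAS5, named for its build-up in growth-arrested cells and a classic target of nonsense-mediated decay, had levels of 2.44 under CGI-1746, 2.56 under LU-102, 2.50 under both and 0.442 under bortezomib, against 2.39 in mock, which is 5.41-fold lower with bortezomib. SNHG6 had levels of 1.86 under CGI-1746, 1.90 under LU-102, 2.46 under both and 0.251 under bortezomib, against 1.85 in mock, and its reads were 18 with bortezomib against 120 in mock (ratio 0.136, interval 0.0779 to 0.224). In all 5 of these hosts the bortezomib library was the lowest of the 5, far from the other 4. Much of this is the shift shared by all genes. Relative to the all-gene median the log2 ratios were -1.06 for SNHG1, -0.64 for SNHG29, -0.50 for SNHG32, -0.26 for GAS5 and -0.21 for SNHG6.

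A second set of hosts lay much closer to mock. SNHG16 had levels of 22.0 under CGI-1746, 21.5 under LU-102, 25.2 under both and 16.4 under bortezomib, against 23.0 in mock. Its bortezomib ratio was 0.713 (2315 reads against 2938, interval 0.675 to 0.754). SNHG8, host of SNORA24, had levels of 14.9 under CGI-1746, 14.5 under LU-102, 17.8 under both and 11.4 under bortezomib, against 14.2 in mock, a bortezomib ratio of 0.802 (interval 0.667 to 0.964). For SNHG5 the bortezomib ratio was 0.623 (interval 0.527 to 0.735), for SNHG12 it was 0.590 (0.416 to 0.831), and for SNHG3, SNHG10 and SNHG7 it was 0.778, 0.608 and 0.589. These 7 were lower in level with bortezomib but above the median ratio of all genes, 0.324.

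SNHG15 was the exception among hosts. It had levels of 3.57 under CGI-1746, 3.70 under LU-102, 4.55 under both and 7.13 under bortezomib, against 3.48 in mock. The bortezomib library was the highest of the 5, with 487 reads against 215 in mock, a ratio of 2.05 (interval 1.74 to 2.42). On the scale with a pseudocount its log2 ratio was 0.86, under the 2-fold threshold, and relative to the all-gene median it was 1.84.

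**Figure D1:**
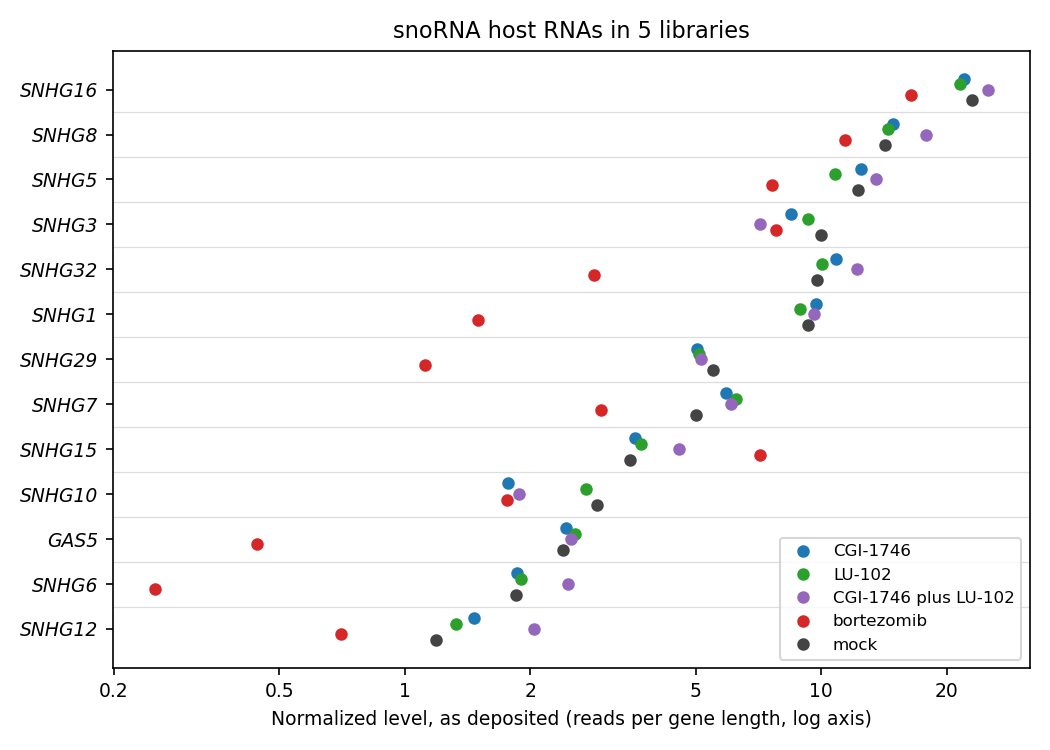
Normalized levels, as deposited, of the 13 snoRNA host RNAs on a logarithmic axis, 1 point per library, with hosts ordered by their mock level. The bortezomib points of SNHG1, SNHG29, SNHG32, GAS5 and SNHG6 lie far left of the other 4 libraries, and that of SNHG15, at 7.13, lies right of them.

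Counted at 2-fold with a pseudocount of 1, 5 of 13 hosts were lower with bortezomib and 0 higher, where 48.1% of all 4189 genes compared were lower and 1.38% higher. The median host log2 ratio was -0.60, against -0.98 over all genes. Relative to that all-gene median, 1 host (SNHG1) was 2-fold or more lower and 1 (SNHG15) 2-fold or more higher, where 7.83% and 7.52% of all genes were. Under that scaling 8 of the 13 hosts lay above 0, so the direction of SNHG3, SNHG5, SNHG7, SNHG8, SNHG10, SNHG12 and SNHG16 depends on the scaling used. Hosts with the pyrimidine start had bortezomib log2 ratios of -0.36 (SNHG12), -0.62 (SNHG5) and -1.48 (SNHG32). That range also holds SNHG16, SNHG10, SNHG7 and GAS5, for which the annotated start at hand has no run of at least 5 bases. Only 1 annotated start per host was read, so these 4 hosts are not shown to lack such a tract at another start.

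No host passed 2-fold with CGI-1746, LU-102 or their combination. Of all genes compared, 0.119% were higher and 0.0478% lower with CGI-1746, 0.0715% higher and 0% lower with LU-102, and 0.167% higher and 0.0477% lower with the combination. Host log2 ratios to mock ran between -0.49 and 0.20 for CGI-1746, between -0.16 and 0.27 for LU-102 and between -0.43 and 0.47 for the combination. The host medians were 0.02, 0.02 and 0.13, beside all-gene medians of -0.02, -0.06 and 0.03. All hosts but SNHG29 span under 10000 bases, and the medians of all compared genes of that span were 0.004, -0.004 and 0.096. Part of the host median with the combination is thus shared by short genes.

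With the combination, SNHG12 was the highest host by ratio. It had levels of 1.47 under CGI-1746, 1.33 under LU-102 and 2.04 under both, against 1.19 in mock, and its reads numbered 154 with the combination against 89 in mock, a ratio of 1.71 (interval 1.31 to 2.25). Combination ratios to mock were 1.31 for SNHG15 (interval 1.09 to 1.57), 1.33 for SNHG6 (1.04 to 1.70), 1.26 for SNHG8 (1.06 to 1.49) and 1.09 for SNHG16 (1.04 to 1.15). Against LU-102 alone the combination gave ratios of 1.53 for SNHG12 (interval 1.19 to 1.99), 1.25 for SNHG5 (1.08 to 1.45) and 1.17 for SNHG16 (1.11 to 1.23). Against CGI-1746 alone it gave 1.39 for SNHG12 (interval 1.08 to 1.79) and 1.27 for SNHG15 (1.07 to 1.52). Over all genes compared the median ratio was 1.08 against LU-102 and 1.04 against CGI-1746. For genes with a span under 10000 bases it was 1.09 and 1.08. With recovered reads, 6 of 8 hosts and 914 of 2300 genes had a counting interval above 1 against LU-102. Against CGI-1746, 5 of 8 hosts and 580 of 2298 genes did. These comparisons share the combination library, and no member, host or other, passed 2-fold in the last 2 of them, as 0.143% of all genes were higher against LU-102 and 0.0715% against CGI-1746 (0% and 0.0238% lower). Among the 8 hosts with recovered reads, 5 had a counting interval above 1 for the combination against mock and 1, SNHG29, had one below 1, where 27.8% and 18.6% of all genes with recovered reads did.

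Across libraries, 7 of the 13 hosts were higher with the combination than with either single agent and mock, beside 44.6% of all listed genes. SNHG3 was lowest with the combination among these 4 libraries, and SNHG10 was lower with the combination than with LU-102 and in mock. SNHG3 had levels of 8.45 under CGI-1746, 9.31 under LU-102, 7.13 under both and 7.77 under bortezomib, against 9.99 in mock. SNHG10 had levels of 1.77 under CGI-1746, 2.72 under LU-102, 1.89 under both and 1.76 under bortezomib, against 2.90 in mock. Mock was the highest library for both.

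These 2 hosts are also the members whose snoRNA class RNAs appear as genes of their own in the table. SCARNA13, a small Cajal body RNA within SNHG10 (chromosome 14, 95533355 to 95533629), had about 407 estimated reads under CGI-1746, 336 under LU-102, 405 under both and 745 under bortezomib, against 479 in mock. Its host had about 59.0, 91.2, 62.8 and 64.2 estimated reads in these 4 libraries, against 95.6 in mock. By these estimates the short RNA had more reads than the gene that contains it, so its reads do not seem to be fully counted in the host's level. How reads in both genes were assigned is not stated. With bortezomib SCARNA13 was higher (ratio 1.41) and SNHG10 lower (ratio 0.608), both without an interval because their reads did not come out whole.

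SNHG3 holds SNORA73A and SNORA73B, H/ACA RNAs of the U17 family, which act in cleavage of the ribosomal RNA precursor. SNORA73A had 354 reads under CGI-1746, 451 under LU-102, 496 under both and 856 under bortezomib, against 351 in mock. SNORA73B had 549 reads under CGI-1746, 641 under LU-102, 686 under both and 336 under bortezomib, against 527 in mock. With bortezomib the pair went opposite ways, with ratios of 2.21 for SNORA73A (interval 1.95 to 2.51) and 0.577 for SNORA73B (0.502 to 0.663). With the combination both were higher, by ratios of 1.40 (interval 1.22 to 1.61) and 1.29 (1.15 to 1.45), while the level of SNHG3 was 7.13 against 9.99. The 2 snoRNAs are close copies of each other, so the share of each is uncertain.

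**Figure D2:**
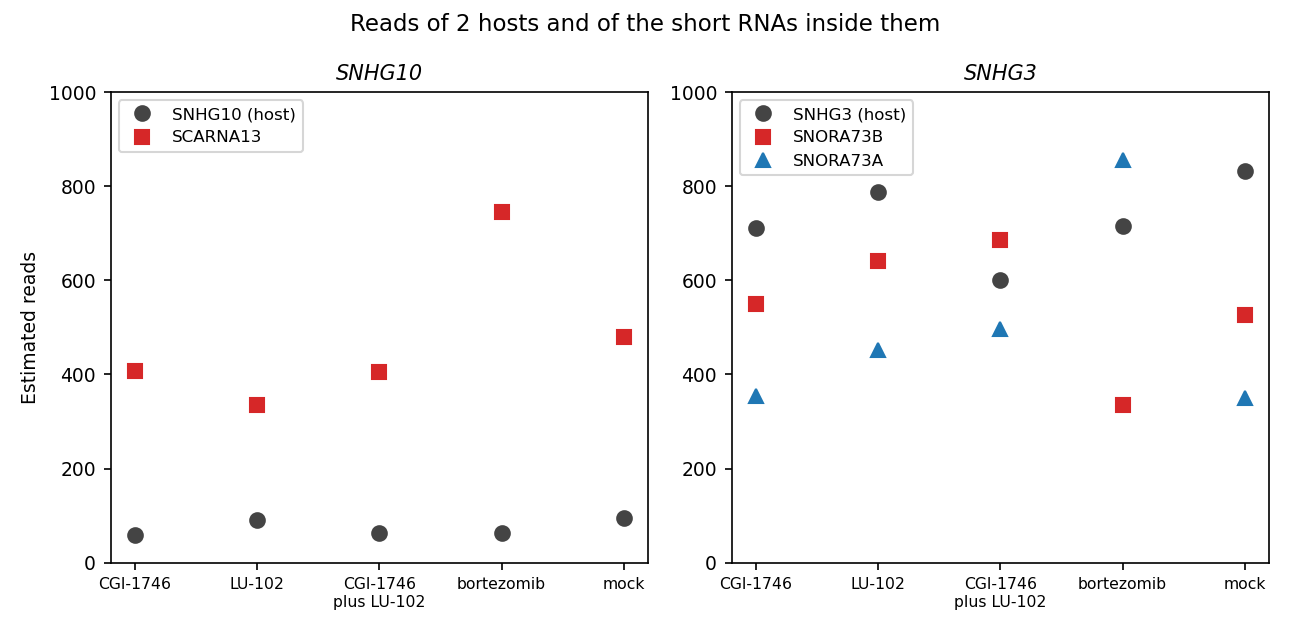
Estimated reads (linear axis) of SNHG10 with SCARNA13 and of SNHG3 with SNORA73A and SNORA73B in the 5 libraries, 1 point per library. SCARNA13 lies above its host in each library, and with bortezomib SNORA73A is at 856 reads and SNORA73B at 336.

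SNHG32 lies 4662 bases after the end of HSPA1B on chromosome 6 (31834916 to 31839761). HSPA1B, a gene of the inducible chaperone HSP70, had levels of 136 under CGI-1746, 79.7 under LU-102, 284 under both and 99.5 under bortezomib, against 62.2 in mock. SNHG32 was also highest with the combination, at 12.2 against 9.74 in mock, but with a log2 ratio of 0.30 where HSPA1B had 2.17. With bortezomib HSPA1B was higher (log2 0.67) and SNHG32 lower (log2 -1.48).

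The other 50 long noncoding RNAs had low levels. Among all 63 members 46 had a mock level under 3, and 17 of the 45 with recovered reads had fewer than 100 reads in mock, where counting error alone is wide. With bortezomib 11 of the 50 were 2-fold or more lower and 2 higher, beside 48.1% and 1.38% of all genes. The pseudocount narrows the ratios of low genes, and 39 of the 50 had a mock level between 1 and 3, a range in which 27.4% of the 2043 genes compared were lower and 0.832% higher. The 11 of 50 lie near that share. Their median ratio without a pseudocount was 0.630, against 0.324 for all genes and 0.370 for the 1674 compared genes with a span under 10000 bases, the class to which 52 members belong. With no pseudocount, 20 of the 50 were 2-fold or more lower, where 72.4% of all genes were. Relative to the all-gene median, 39 lay above and 11 below, and 12 were 2-fold or more higher and 0 lower, where 7.52% and 7.83% of all genes were. In the range between 1 and 3 these shares were 7.24% and 0% of all genes, so the count of 0 lower follows from the scale at such levels. Of the 45 members with recovered reads, hosts included, 28 had a bortezomib interval below 1 and 4 one above 1, where 88.2% and 5.36% of all genes with recovered reads did. For 10 members the 4 libraries other than bortezomib sum to less than 5, close to the lowest sum of 5 levels in the table, 5.04. Some of these may be listed only because of their bortezomib level, so the counts describe listed genes and not all genes of these classes.

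**Figure D3:**
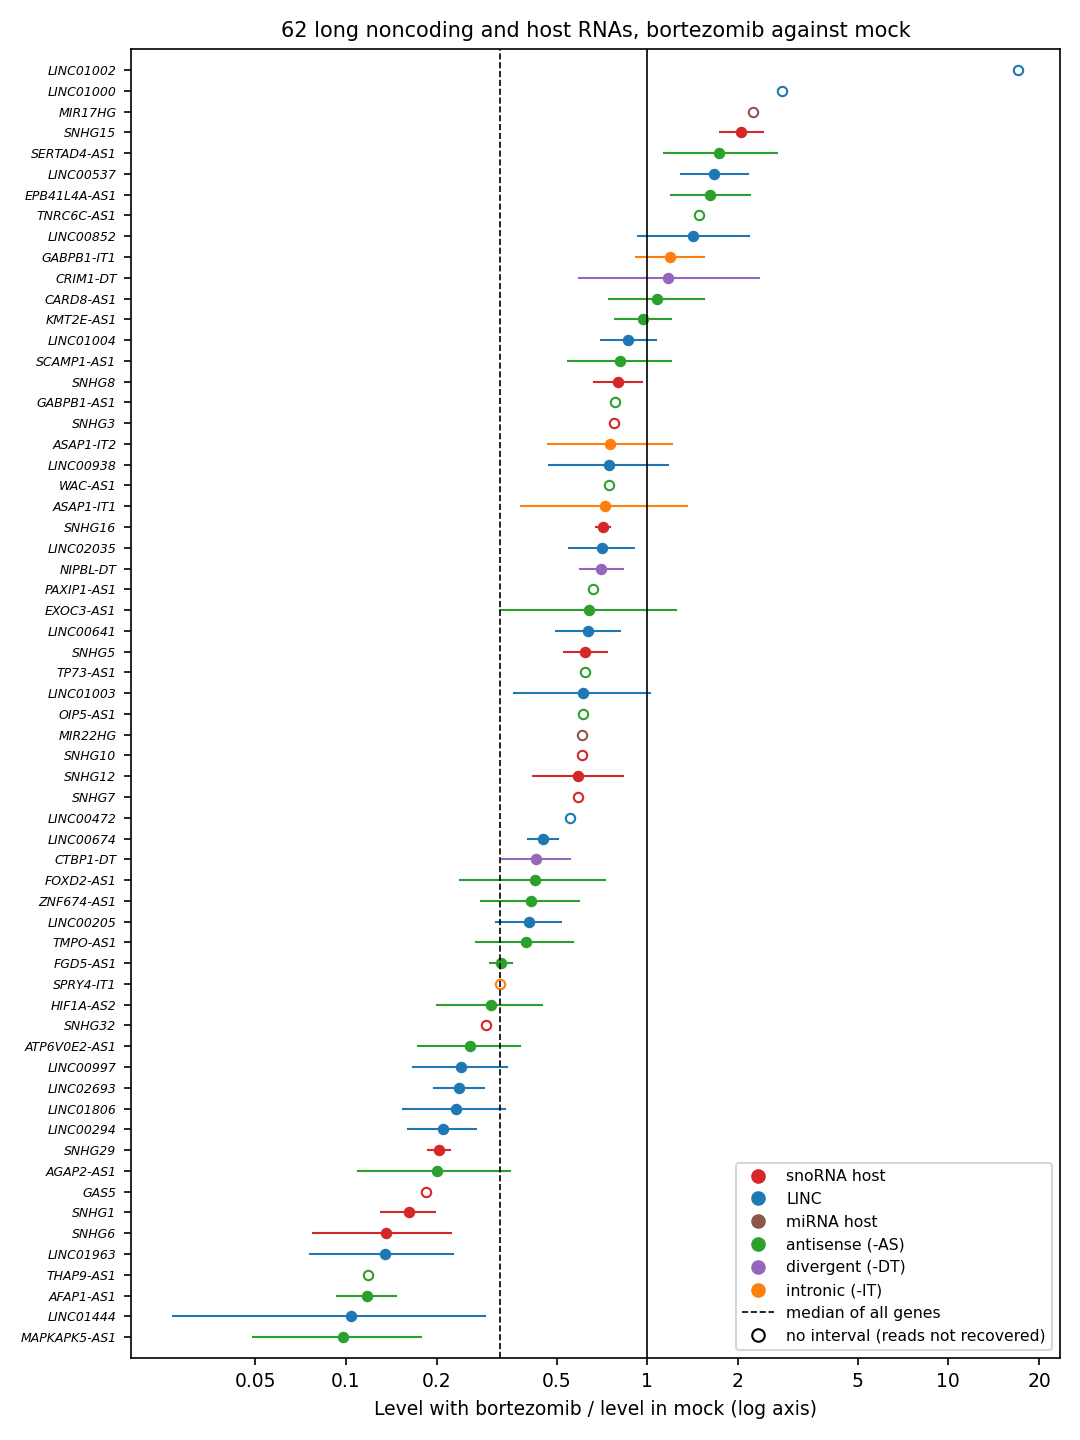
Ratio of the level with bortezomib to the level in mock for 62 members, ranked, on a logarithmic axis. Points are coloured by class, horizontal lines are 95% counting intervals where reads were recovered, open circles have none, and the dashed line marks the median ratio of all genes, 0.324; most members lie right of it and left of 1.

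The LINC genes are a class set by symbol and mostly have no assigned function. GENCODE 29 types LINC00852 and LINC01004 as antisense and LINC02693 as protein-coding. With bortezomib 5 of 18 LINC genes were 2-fold or more lower and 2 higher, beside 48.1% and 1.38% of all genes. At mock levels between 1 and 3, where 14 of the 18 lie, these shares were 27.4% and 0.832%. LINC00294 (chromosome 11, 33076150 to 33079454) had levels of 5.64 under CGI-1746, 4.77 under LU-102, 5.0 under both and 1.22 under bortezomib, against 5.82 in mock. It was 4.77-fold lower with bortezomib (75 reads against 324, ratio 0.210, interval 0.161 to 0.270). LINC01444 had 4 reads with bortezomib against 35 in mock (ratio 0.103, interval 0.0267 to 0.289), and its level is uncertain, since 764 bases of it match 1 other annotated gene at 95.7% identity. LINC01963 had 17 against 114 (ratio 0.135, interval 0.0760 to 0.226). LINC00472 had the highest mock level of the LINC genes, with levels of 6.99 under CGI-1746, 6.64 under LU-102, 5.75 under both and 3.49 under bortezomib, against 6.32 in mock. LINC00674 had the most recovered reads of this class, 450 with bortezomib against 904 in mock (ratio 0.451, interval 0.402 to 0.505).

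LINC01002 and LINC01000 were the LINC genes past 2-fold in the other direction. LINC01002 (chromosome 19, 197016 to 202209) had levels of 0.654 under CGI-1746, 0.779 under LU-102, 0.863 under both and 9.07 under bortezomib, against 0.535 in mock. That is 17.0-fold higher with bortezomib, the highest ratio among members, but its transcripts matched 20 other annotated genes at 95% identity or more over at least 500 bases, with identity up to 99.4%, so its level is uncertain. It is one of the 10 genes whose other 4 levels sum to less than 5. LINC01000 had levels of 1.63 under CGI-1746, 2.05 under LU-102, 1.85 under both and 4.55 under bortezomib, against 1.62 in mock, a bortezomib ratio of 2.81. LINC00537 had 177 reads with bortezomib against 96 in mock (ratio 1.67, interval 1.29 to 2.16) and is another of these 10. LINC00852 had 61 reads with bortezomib against 39 in mock (ratio 1.42, interval 0.932 to 2.17). LINC00997 had 41 against 154 (ratio 0.241, interval 0.166 to 0.342).

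The microRNA hosts differed from each other. MIR17HG had levels of 1.18 under CGI-1746, 0.997 under LU-102, 1.01 under both and 2.36 under bortezomib, against 1.05 in mock, a bortezomib ratio of 2.25 and a log2 ratio of 0.71 with the pseudocount. MIR22HG had levels of 4.35 under CGI-1746, 4.64 under LU-102, 4.92 under both and 3.07 under bortezomib, against 5.04 in mock, a bortezomib ratio of 0.608. The bortezomib library was the highest of the 5 for MIR17HG and the lowest for MIR22HG. MIR17HG is among the 10 members whose other 4 levels sum to less than 5, so it may be listed only because of its bortezomib level. Both lay above the all-gene median.

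Among the antisense transcripts 6 of 22 were 2-fold or more lower with bortezomib and 0 higher, which is near the shares of all genes at mock levels between 1 and 3 (27.4% and 0.832%; 48.1% and 1.38% over all levels), where 19 of the 22 lie. FGD5-AS1 (chromosome 3, 14942779 to 14948441), by far the most abundant of them, had levels of 19.9 under CGI-1746, 19.6 under LU-102, 18.5 under both and 6.67 under bortezomib, against 20.4 in mock. It was 3.06-fold lower with bortezomib (702 reads against 1944, ratio 0.327, interval 0.300 to 0.357), a ratio next to the median of all genes. MAPKAPK5-AS1 had 12 reads with bortezomib against 111 in mock (ratio 0.0979, interval 0.0491 to 0.178). AFAP1-AS1, often raised in carcinomas, had 91 reads against 703 (ratio 0.117, interval 0.0932 to 0.146). Levels of THAP9-AS1 were 0.299 with bortezomib and 2.53 in mock, and those of AGAP2-AS1 0.406 and 2.02.

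At the other end, EPB41L4A-AS1, which carries a snoRNA although its name does not say so, had levels of 1.58 under CGI-1746, 1.87 under LU-102, 2.26 under both and 3.46 under bortezomib, against 2.13 in mock. Its bortezomib ratio was 1.62 (127 reads against 71, interval 1.20 to 2.20). OIP5-AS1, a conserved RNA also known as Cyrano, had levels of 1.81 with bortezomib and 2.97 in mock. KMT2E-AS1 had 186 reads with bortezomib and 174 in mock, a ratio of 0.968 whose interval, 0.783 to 1.20, holds 1. Whether reads were counted by strand is not stated. Exons of 31 of the 59 members in GENCODE 29 overlap exons of the opposite strand, 10 of them over more than 20% of their length. Reads of a partner gene may therefore be counted with some members, hosts included. Among antisense members the share is 49.6% for EPB41L4A-AS1, 57.7% for AGAP2-AS1 and 6.45% for FGD5-AS1.

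Of the 30 antisense, divergent and intronic members 8 are described here beside the coding gene they are named after. With bortezomib the member's log2 ratio was above its partner's in 7 of these 8 pairs on the scale with a pseudocount of 1, and in 5 of 8 with no pseudocount. The widest difference on both scales was that of SERTAD4-AS1, with levels of 1.48 with bortezomib and 0.855 in mock (67 reads against 35, ratio 1.73, interval 1.14 to 2.69), where its partner SERTAD4 had 0.626 and 3.08. CRIM1-DT had 1.44 with bortezomib and 1.23 in mock, where CRIM1, a membrane regulator of bone morphogenetic proteins, had 1.48 and 3.09. The levels of CRIM1-DT rest on 22 reads against 17 (ratio 1.17), and the interval, 0.594 to 2.35, holds 1. SERTAD4-AS1 and CRIM1-DT are both among the 10 members that may be listed only because of their bortezomib level, so the sign of their differences may be set by that listing. WAC-AS1, which has a near-identical copy elsewhere, had a log2 ratio of -0.25 and WAC one of -0.81. For HIF1A-AS2 and HIF1A, the oxygen-sensing transcription factor, both ratios were low, at -1.08 and -1.47. The other pairs depend on the pseudocount. CTBP1-DT less CTBP1 was 0.06 with a pseudocount of 1, 0.63 with none and -0.07 with 5. ATP6V0E2-AS1 less ATP6V0E2 was 0.01 with a pseudocount of 1 and -0.96 with none, and TMPO-AS1 less TMPO was 0.33 and -0.13. SPRY4-IT1 had -0.94 beside -0.62 for SPRY4, an inhibitor of growth factor signalling, and was below its partner with no pseudocount too (difference -0.88) but not with one of 5 (0.01). With CGI-1746, LU-102 and the combination, the member was above its partner in 4, 4 and 5 of the 8 pairs, with a pseudocount of 1 and with none.

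**Figure D4:**
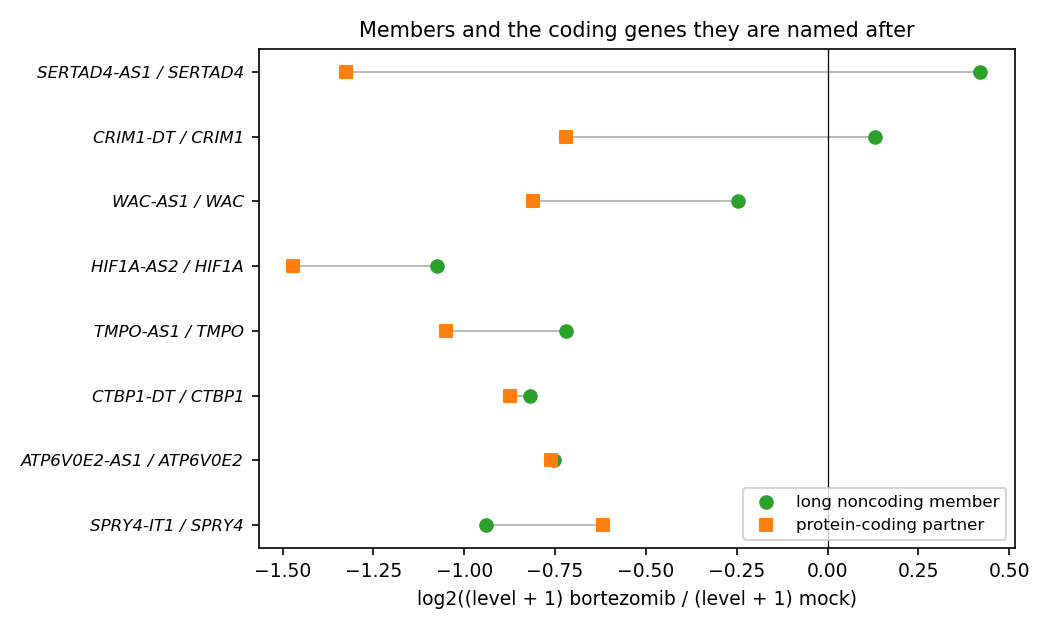
Log2 ratios of bortezomib to mock, with a pseudocount of 1, for 8 members (circles) and the coding genes they are named after (squares), ordered by the difference. In 7 of 8 pairs the circle lies right of the square, by most for SERTAD4-AS1; with no pseudocount this holds for 5 of 8, since TMPO-AS1 and ATP6V0E2-AS1 turn.

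Of the 4 divergent and 4 intronic members none passed 2-fold with bortezomib on the scale with a pseudocount, where 48.1% of all genes were lower and 1.38% higher, and all 8 lay above the all-gene median there (SPRY4-IT1 by 0.04). At mock levels between 1 and 3, where 1 of the 4 divergent and all 4 intronic members lie, these shares were 27.4% and 0.832%. In that range 1438 of 2043 genes lay above the all-gene median too. CRIM1-DT, GABPB1-IT1 and ASAP1-IT2 are among the 10 members that may be listed only because of their bortezomib level. Their place above that median may be set by that listing. With no pseudocount CTBP1-DT was 2.33-fold lower and SPRY4-IT1 3.09-fold lower, and SPRY4-IT1 lay just below the all-gene median ratio of 0.324. NIPBL-DT had levels of 4.19 under CGI-1746, 3.12 under LU-102, 3.56 under both and 2.64 under bortezomib, against 3.75 in mock, with a bortezomib ratio of 0.704 (interval 0.597 to 0.830). GABPB1-IT1 had 142 reads with bortezomib against 108 in mock, a ratio of 1.19 whose interval, 0.920 to 1.54, holds 1. ASAP1-IT1 and ASAP1-IT2 had ratios of 0.724 and 0.755, and both intervals hold 1.

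With CGI-1746, LU-102 and the combination none of the other long noncoding RNAs passed 2-fold against mock either. Their log2 ratios ran between -0.41 and 0.40 for CGI-1746, between -0.39 and 0.50 for LU-102 and between -0.55 and 0.56 for the combination, with medians of 0.00, -0.02 and -0.04. TMPO-AS1, antisense to the gene of a nuclear lamina protein, was the lowest member with CGI-1746 and with the combination among these 50. Its reads were 63 under CGI-1746, 68 under LU-102 and 52 under both, against 101 in mock, which is a combination ratio of 0.510 (interval 0.358 to 0.720). TMPO itself had levels of 9.15 under CGI-1746, 8.17 under LU-102 and 9.09 under both, against 10.3 in mock.

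FOXD2-AS1 had the highest ratio with the combination. Its reads were 37 under CGI-1746, 80 under LU-102 and 87 under both, against 45 in mock. The libraries with LU-102 were high and those without it low, bortezomib included at 21 reads. The ratios to mock were 1.75 with LU-102 (interval 1.20 to 2.59) and 1.92 with the combination (1.32 to 2.81), and the combination stood at 2.35 over CGI-1746 (1.58 to 3.56). That last ratio passes 2-fold without a pseudocount, as 0.310% of all genes did, and not with one (log2 0.70).

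SPRY4-IT1 had levels of 3.07 under CGI-1746, 3.06 under LU-102 and 3.76 under both, against 2.41 in mock, so all 3 treated libraries were above mock. LINC01004 was highest with LU-102, with a ratio of 1.31 to mock (interval 1.08 to 1.59), and the combination was lower than LU-102 alone (ratio 0.601, interval 0.487 to 0.741). SCAMP1-AS1 had the lowest LU-102 ratio of these RNAs, with 37 reads against 57 in mock (ratio 0.640, interval 0.411 to 0.985). EXOC3-AS1 had the highest CGI-1746 ratio, with 39 reads against 24 in mock (ratio 1.61), and its interval, 0.944 to 2.80, holds 1. GABPB1-AS1 had ratios to mock of 0.709 with CGI-1746 and 0.615 with the combination, and PAXIP1-AS1 one of 0.771 with the combination. LINC00641 and LINC01003 had CGI-1746 ratios of 1.17 and 1.16, and both intervals hold 1. MAPKAPK5-AS1 had 80 reads with LU-102 against 111 in mock (ratio 0.711, interval 0.526 to 0.956). Counting intervals above 1 were seen in 1, 3 and 2 of the 35, 36 and 35 others with recovered reads for CGI-1746, LU-102 and the combination, and intervals below 1 in 2, 5 and 4. Over all genes with recovered reads the shares above 1 were 10.5%, 10.8% and 27.8%, and those below 1 were 21.1%, 35.6% and 18.6%.

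**Figure D5:**
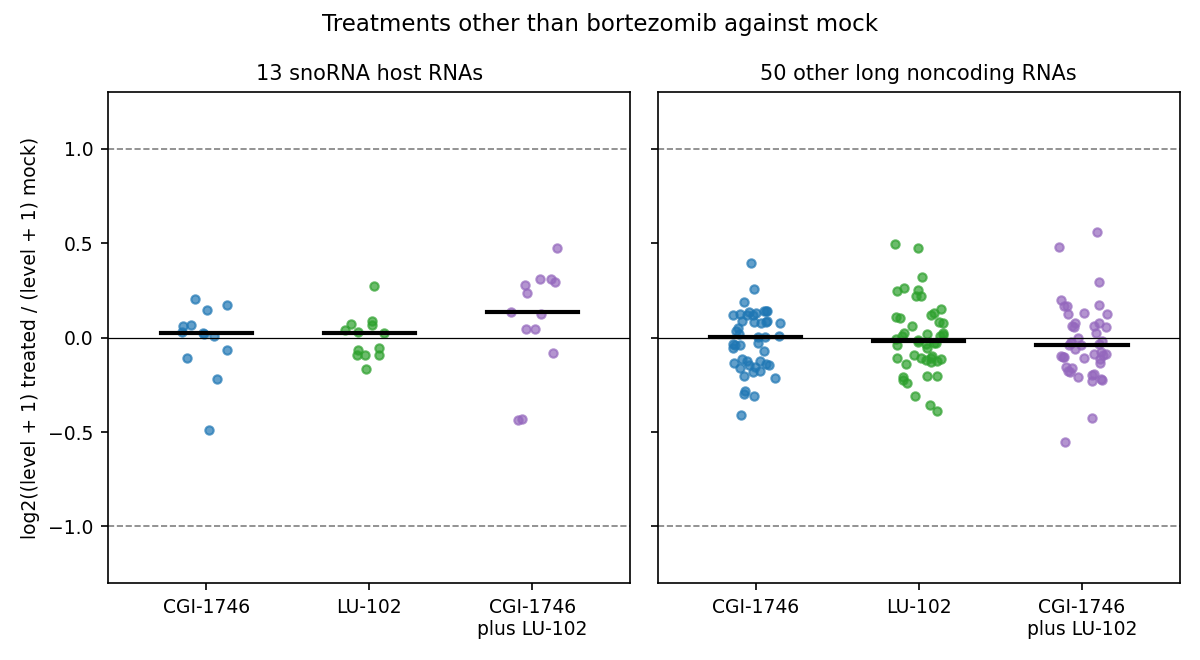
Log2 ratios to mock, with a pseudocount of 1, of hosts (left) and other long noncoding RNAs (right) for CGI-1746, LU-102 and the combination; each point is a gene, horizontal bars are medians and dashed lines mark 2-fold. No point reaches either dashed line, and the host median with the combination is 0.13.

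The machinery around host RNAs was read from 4 gene lists. Of the 13 listed core proteins of snoRNA particles and their assembly factors 9 were measured. With bortezomib 8 were 2-fold or more lower (median log2 -1.83), beside 48.1% of all genes (median -0.98). Among genes with a mock level of 5 or more, such as NOP56 and DKC1, 72.2% were lower (median -1.45). NOP56, a core protein of C/D box particles, had levels of 27.5 under CGI-1746, 23.6 under LU-102, 27.2 under both and 2.39 under bortezomib, against 27.0 in mock. DKC1, the pseudouridine synthase of H/ACA particles, had 2.16 with bortezomib and 10.3 in mock. Of the 37 coding snoRNA hosts, such as RPL7A, EEF2 and HSPA8, 32 were 2-fold or more lower with bortezomib (median -1.95), beside 5 of the 13 hosts taken here as noncoding and 48.1% of all genes. SNHG32, which is among these 5, is typed as protein-coding in GENCODE 29. Of all genes with a mock level of 5 or more 72.2% were lower, and the coding hosts include very high levels, such as 429 for HSPA8 in mock, so levels differ between the 2 kinds of host. A wider set, the 105 coding genes that hold a snoRNA in GENCODE 29, had 81 lower and a median of -1.52.

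Of 18 nonsense-mediated decay factors 9 were measured, with 5 lower by 2-fold or more with bortezomib and a median of -1.06, near the 48.1% and -0.98 of all genes. PNRC2, which links decay to decapping, had levels of 13.2 under CGI-1746, 13.7 under LU-102, 11.9 under both and 5.63 under bortezomib, against 16.4 in mock. EIF4A3, of the exon junction complex, had 0.944 with bortezomib and 6.77 in mock. Of 20 subunits and adaptors of the nuclear exosome, which degrades many divergent RNAs, 11 were measured and 8 were lower (median -1.12), beside the same 48.1%. EXOSC6 was above mock, with a level of 15.1 with bortezomib against 10.3 in mock. With CGI-1746, LU-102 and the combination no gene of the 4 lists passed 2-fold, and the list medians lay between -0.11 and 0.06.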

How the data were processed

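The authors sequenced total RNA of 5 libraries, 1 per condition, with 150 bp paired reads and 40000000 reads planned for each, per the labels. Partek and hg38 are named in the submitters' processing notes; the aligner, the annotation, strandedness and normalization are not stated. The deposited values are a normalized signal for each gene in each library, given as least squares means per the file headers. The file repeats libraries in further columns, of which 7 were not used.

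RefSeq gene lengths (GRCh38.p14, 60 of 63 members matched) turned signals into reads: level times length was divided by the value of 1 read in each library (53.8 for bortezomib, 58.5 to 59.4 in the others). A gene was taken as recovered when all 5 libraries were within 0.1 of a whole number, which 0.032% of genes would be at random. Whether reads in introns were counted is not stated. Where no whole numbers came out, the length used by the authors may differ, and reads are called estimated. Transcript lengths, strands and overlaps came from GENCODE 29, and copies were found with blastn 2.17.0.

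Libraries were compared in 6 ways on log2(level + 1), with a pseudocount of 1, for genes that reach level 1 in at least one of the 2 libraries, at a threshold of 2-fold. Ratios are without a pseudocount unless said. Members, comparisons and lists were chosen with earlier results of these data known. Named by rule were all hosts, other members with a level of at least 5 in any library, and, for each treatment, the 5 ratios to mock at either extreme; from each list up to 4 genes, the highest in mock. Members with a coding partner were named as pairs. Values of 1 member, which is kept in the counts over classes but not in those over pairs, are not reported here. AFAP1-AS1, LINC00674, LINC01963, LINC00537, LINC01004, NIPBL-DT, GABPB1-IT1 and ASAP1-IT2 were named after their values were seen. Calculations used scipy 1.17.1, pandas 2.3.3, numpy 2.4.6 and matplotlib 3.10.9 in Python 3.11.15, and read recovery and intervals were tested on simulated data. The simulated reads were whole numbers placed on the same gene lengths. That test therefore checks the calculation only and cannot speak to genes whose reads did not come out whole.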

Additional observations from a re-analysis of the deposited data

How the results depend on the processing

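No paired analysis was possible because each condition has 1 library, and for the same reason no replicate could be left out. With CGI-1746, LU-102 and the combination against mock, and with the combination against LU-102, the counts of hosts and of other long noncoding RNAs past 2-fold were 0 under each alternative run. For the combination against CGI-1746, 1 other long noncoding RNA (FOXD2-AS1) was higher with a pseudocount of 0.1, with no pseudocount (added after the data were seen) and at a threshold of 1.5-fold.

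Bortezomib counts moved more. With a pseudocount of 0.1, with no pseudocount and at 1.5-fold, 1 host was higher and 20 other RNAs were lower. With a pseudocount of 5, 1 host was lower, and of the others 1 was higher and 1 lower. After median-of-ratios scaling 1 host was higher and 1 lower (median 0.17), and 8 others were higher and 3 lower (median 0.19). Relative to the all-gene median 1 host was higher and 1 lower (median 0.37), and 12 others were higher and 0 lower (median 0.62), so both medians, negative as deposited, turn positive under either scaling. Among genes reaching level 5 in one of the libraries, 3 hosts were lower, and of the others 1 was higher and 2 lower, since 9 hosts and 5 others remain. Without members that have near-identical copies, 1 other RNA was higher. By construction these settings act on low levels, on the threshold, on the common scale or on the number of genes. The share of all genes moves too: 48.1% were lower with a pseudocount of 1 and 72.4% with none. Such shares were not worked out for pseudocounts of 0.1 and 5, 1.5-fold, median-of-ratios scaling or level 5. Counts under those settings show how calls move and give no result about the members. With no pseudocount, added after the data were seen, 5 of the 8 members with a partner were above it with bortezomib. Leaving out members with over 20% opposite-strand overlap moved no count by more than 1.5 times. Depth limits the low members: those under 100 reads in mock have intervals too wide to show less than large differences.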
